A study of Mus musculus with 4 samples.

Results

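Aquaporins are membrane channels that let water follow osmotic gradients across cells. A subgroup, the aquaglyceroporins, also passes glycerol and other small uncharged solutes. Hepatocytes use aquaporins in bile secretion and in the uptake of glycerol for glucose synthesis, and cholangiocytes, endothelial cells and red blood cells carry their own members. The genes examined here were Aqp1, Aqp3, Aqp4, Aqp5, Aqp7, Aqp8, Aqp9 and Aqp11, taken as every row of the authors' deposited table with one of these 8 symbols. They were represented by 13 of the 41174 probes of the array: 3 each for Aqp4 and Aqp9, 2 for Aqp7 and 1 for each of the other 5 genes. The members were chosen by the mutant over wild-type log2 ratios of this series, and that contrast is its only one. The ratios of its members are therefore given as a description, without p-values, and nothing is inferred from how many of them passed.

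Liver RNA of 4 male C57Bl/6 Wrn mutant mice that drank water with 0.4% vitamin C from weaning and were sampled at 3 months of age was labelled with Cy5. Liver RNA of 4 untreated wild-type males of the same strain and age was labelled with Cy3, and 1 animal of each group was hybridised to each of 4 Agilent mouse arrays read in both colours. The helicase Wrn belongs to the RecQ family and acts in DNA repair; what the mutation changes in the gene is not stated by the labels. Neither untreated mutants nor treated wild-type mice were analysed here, and no array had swapped dyes, so genotype, vitamin C and dye cannot be told apart in any ratio.

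Across the 4 arrays 82.8% to 95.8% of non-control spots exceeded background clearly in the mutant channel and 84.5% to 96.2% in the wild-type channel, both lowest on array 1. The 3 testable Wrn probes had log2 ratios of 0.46 ± 0.11, 0.00 ± 0.02 and -0.10 ± 0.08 (SD, n = 4), which gave no check of the labels, because their place relative to the mutation is not known. Albumin (Alb), a hepatocyte gene, had log2 levels of 18.3 to 18.5 in the mutants and 17.4 to 17.7 in wild type. It was well above background in all 8 channels. Most spots were above background too, so this was only a weak check of the tissue label. Of the 13 aquaporin probes 12 were well above background in every channel, 0 had saturated spots and 0 were flagged as outliers. The exception was an Aqp7 probe, in the mutant of array 1. Brightness depends on the probe as well as on the transcript, so levels are compared only within a probe.

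Among the aquaporins the ratio farthest from 0 belonged to Aqp8, the gene of a water channel found in hepatocytes at the bile canalicular membrane and in intracellular vesicles. Its only probe had log2 ratios of 1.185, 1.776, 1.594 and 1.394 on arrays 1 to 4, a mean of 1.49 ± 0.25 (SD, n = 4) or 2.80-fold. It ranked 7 from the top of the 39080 tested probes by mean ratio. The first 30 of the probe's 60 bases are shown, because the value of this gene rests on a single probe.
Aqp8 A_51_P183261, bases 1 to 30: agaaggtctttcaggagcccaaagatcttg
Aqp8 lies on chromosome 7. No other probe of the array shared a run of 20 bases with this one on either strand, and the deposited annotation ties it to 2 RefSeq transcripts of the gene.

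The levels of single animals come from the same arrays as these ratios, so their separation adds no independent support. The 4 mutants had log2 levels of 16.62, 16.85, 16.17 and 15.82, against 15.43, 15.08, 14.57 and 14.43 in the wild-type animals of the same arrays. The lowest mutant was 0.39 above the highest wild-type animal. All mutant levels lay above all wild-type levels on 2.89% of all tested probes. Both channels varied by about the same amount, over 1.03 log2 units among mutants and 1.00 among wild type. In both groups arrays 1 and 2 held the higher levels. As scanned, the median spot intensity was 115300, 158500, 94730 and 83150 in the mutant channels, against 38160, 28450, 18250 and 15130 in the wild-type channels. Values as scanned precede normalisation, so the 2 dyes cannot be set against each other in them. For Aqp1, whose log2 ratio on array 4 was 0.107, they were 20940 in the mutant and 10470 in wild type there. With median centring in place of loess the Aqp8 ratio was 1.89, and with Agilent's processed signals it was 1.4.

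**Figure D1:**
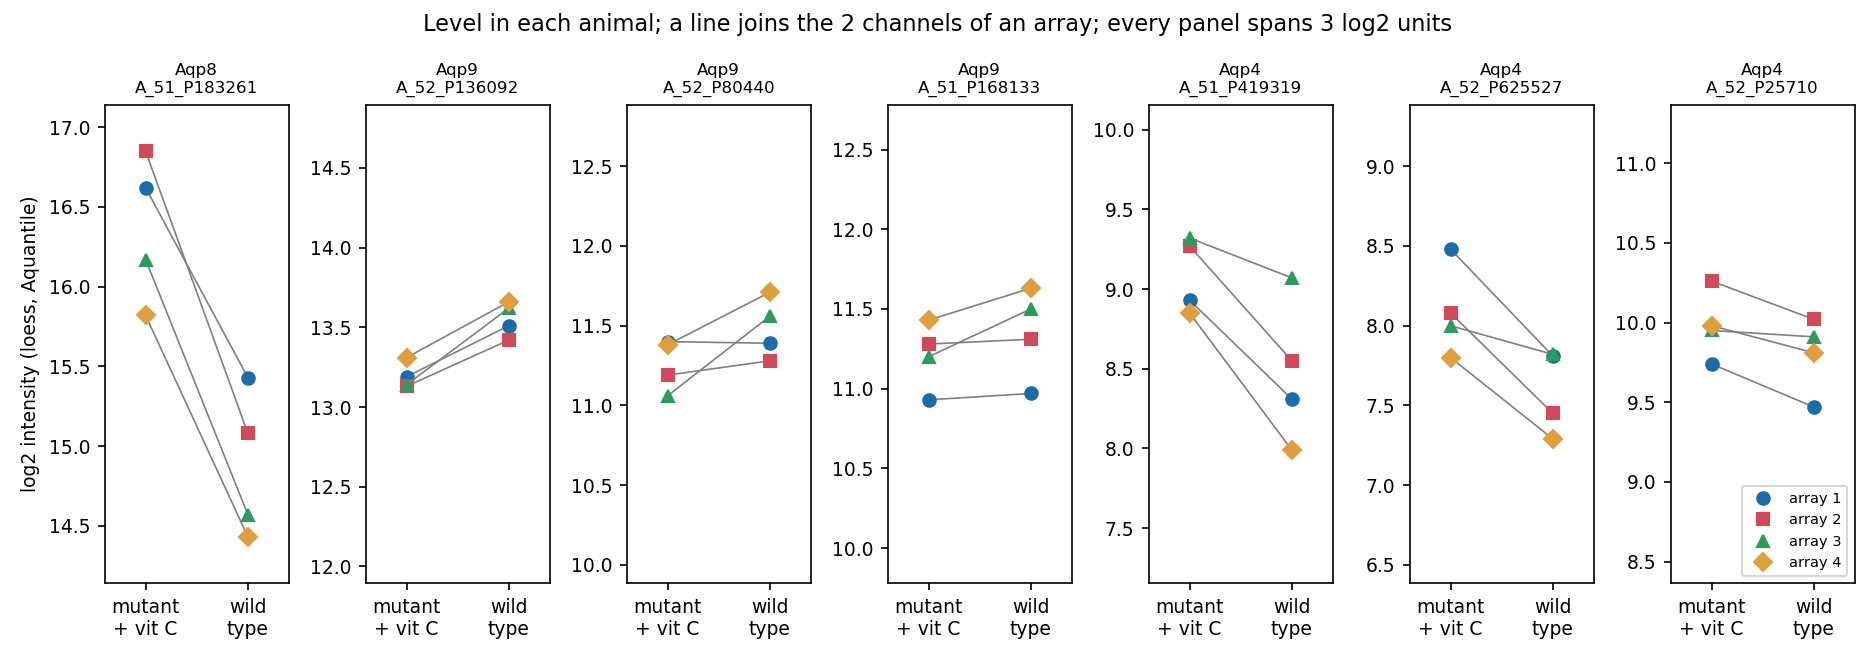
Log2 intensity (y axis) of Aqp8, the 3 Aqp9 probes and the 3 Aqp4 probes in each animal, with vitamin C-treated Wrn mutants left of wild type, a symbol per array, and lines joining the channels of an array. For Aqp8 every mutant lies above every wild-type animal, for the first Aqp9 probe every mutant lies below, and in the other panels the groups overlap.

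Aqp9 encodes the main aquaglyceroporin of the hepatocyte, which takes up glycerol at the sinusoidal membrane. All 3 of its probes had a negative mean ratio, but the size differed. Probe A_52_P136092 had log2 ratios of -0.321, -0.290, -0.484 and -0.353, a mean of -0.36 ± 0.09 (SD, n = 4). Its levels were 13.19, 13.13, 13.14 and 13.31 in the mutants, against 13.51, 13.42, 13.62 and 13.66 in wild type. The groups did not overlap on this probe, and the highest mutant lay 0.11 below the lowest wild-type animal. All mutant levels lay below all wild-type levels on 4.26% of all tested probes. As scanned, before normalisation of the dyes, the median intensity of A_52_P136092 was 9910, 10150, 10990 and 13830 in the mutant channels. In the wild-type channels it was 10790, 10020, 10030 and 9760. Probe A_52_P80440 gave 0.013, -0.097, -0.505 and -0.330, a mean of -0.23 ± 0.23, and probe A_51_P168133 gave -0.040, -0.034, -0.297 and -0.196, a mean of -0.14 ± 0.13. On both of these the levels of the groups overlapped, and on all 3 probes the ratio was lowest on array 3. The mean of the 3 probes was -0.24 ± 0.15.

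The Aqp9 probe sequences are shown because the probes differ in ratio, and the last pair because it measures nearly the same bases 2 times. An unnamed probe of the array, A_52_P515677, was designed on a liver tumour cDNA that the deposited annotation describes as an Aqp9 homologue. It carries no symbol and so is not among the 13. Its first 54 bases are the same as those of A_52_P136092. Capitals mark the bases after that shared run.
Aqp9 A_51_P168133, bases 1 to 60: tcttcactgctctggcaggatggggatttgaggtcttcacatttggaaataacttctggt
Aqp9 A_52_P80440, bases 1 to 60: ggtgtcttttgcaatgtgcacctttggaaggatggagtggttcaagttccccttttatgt
Aqp9 A_52_P136092, bases 31 to 60: gactaaagttggaggtagataaagTCCCTG
unnamed A_52_P515677, bases 31 to 60: gactaaagttggaggtagataaagGTCCCT
The unnamed probe had log2 ratios of -0.329, -0.244, -0.472 and -0.345, a mean of -0.35 ± 0.09 (SD, n = 4). On each array it was within 0.05 of A_52_P136092, closer than the other Aqp9 probes were to either. Of the 3 forward reading frames, 2 hold no stop codon in A_51_P168133 and 3 hold none in A_52_P80440, whereas every frame of A_52_P136092 holds one. None of the 3 Aqp9 probes shared a run of 20 bases with another of them. Aqp9 lies on chromosome 9. Whether the transcript variants named in the annotation differ in level was not tested.

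Aqp11 encodes an aquaporin of the endoplasmic reticulum that hepatocytes and kidney tubule cells express. Its probe gave log2 ratios of -0.250, 0.007, -0.087 and -0.044, a mean of -0.09 ± 0.11 (SD, n = 4), with levels of 12.55 to 12.65 in the mutants and 12.60 to 12.81 in wild type. The groups overlapped. Both groups kept within a narrow range on this probe, 0.10 among mutants and 0.21 among wild type.

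Aqp1 is the water channel of red blood cells, many endothelial cells and cholangiocytes. Its probe gave log2 ratios of 0.005, 0.060, 0.186 and 0.107, a mean of 0.09 ± 0.08 (SD, n = 4). The levels were 13.88 to 14.33 in the mutants and 13.77 to 14.32 in wild type, nearly the same range. The globin genes of red cells had ratios of both signs. Hba-a1 had log2 ratios of -1.31, 0.10, 1.91 and -0.32, and Hbb-b1 had -1.69, 0.11, 2.16 and -0.42. The summed level of 10 erythroid markers ran from 17.73 to 19.18 in the mutants and from 17.35 to 18.96 in wild type. That of 10 cholangiocyte markers ran from 14.08 to 14.36 in the mutants and from 14.54 to 14.71 in wild type, and was carried by the bright Spp1 probe. Without Spp1 it ran from 12.58 to 12.95 in the mutants and from 12.61 to 13.09 in wild type, and the groups overlapped. That of 10 sinusoidal endothelial markers ran from 15.77 to 15.88 in the mutants and from 15.94 to 16.16 in wild type, led by a Clec4g probe that the other Clec4g probes (0.05 and 0.17) did not follow. Without Clec4g it ran from 15.16 to 15.29 in the mutants and from 15.31 to 15.44 in wild type. The part of these cell types in the Aqp1 ratio was not tested. In whole tissue, fewer cells of a type and less RNA per cell cannot be told apart.

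Aqp3 and Aqp7 are aquaglyceroporins best known from skin and kidney and from fat cells, where Aqp7 lets glycerol out during lipolysis. They are direct neighbours on chromosome 4 in the RefSeq gene table. The Aqp3 probe gave log2 ratios of 0.124, 0.244, 0.131 and 0.211, a mean of 0.18 ± 0.06 (SD, n = 4). All 4 ratios were positive, but the levels of 9.92 to 10.52 in the mutants and 9.78 to 10.40 in wild type overlapped, and with Agilent's processed signals the mean was 0.05. For Aqp7, probe A_51_P378063 gave 0.186, 0.229, 0.071 and 0.15, a mean of 0.16 ± 0.07, and probe A_52_P403405 gave -0.127, -0.021, 0.027 and 0.186, a mean of 0.02 ± 0.13. The second was the probe whose mutant signal on array 1 was close to background.

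The Aqp7 probes overlap by 38 bases with 1 mismatch, which is shown because the pair covers nearly the same site. Their means differ by 0.14, less than the median span of 0.17 over genes with 2 or more tested probes, not matched by number of probes. The difference is G40A, counted from 1 at the 5′ end of A_52_P403405, which was designed on the RefSeq transcript. A_51_P378063 was designed on a separate cDNA. Capitals mark the base that differs.
Aqp7 A_52_P403405, bases 26 to 55: tagagcttctctttGaccacaaccgtactg
Aqp7 A_51_P378063, bases 4 to 33: tagagcttctctttAaccacaaccgtactg
As scanned, A_52_P403405 had a median intensity of 144, 378, 385.5 and 358 in the mutant channels and 128, 332, 259.5 and 210 in the wild-type channels. A_51_P378063 had 1212, 1166, 1187 and 1190 in the mutant channels and 959, 904, 764 and 674.5 in the wild-type channels. On array 1 the first probe was dimmer in both channels than on the other arrays, whereas the second was not.

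Among markers of fat cells, which are the main site of Aqp7, 2 of 11 were higher in the mutants at an adjusted p under 0.05 in limma, 0 were lower and 9 did not pass. Of 20687 genes, each read by its brightest tested probe, 6.45% were higher and 5.85% were lower. The higher marker genes were Cfd, the gene of adipsin, at 1.54 ± 0.53 (limma adjusted p = 0.0131), and Thrsp, a lipogenic gene that hepatocytes also express, at 0.99 ± 0.59 (limma adjusted p = 0.0312). The defining genes Adipoq and Lep had log2 ratios of -0.05 ± 0.28 and 0.01 ± 0.12, and Plin1 had 0.06 ± 0.10. The list's summed level was 16.20 to 17.45 in the mutants and 15.50 to 16.71 in wild type, led by Thrsp. Without Thrsp it was 13.70 to 14.17 in the mutants and 13.60 to 13.85 in wild type. The part of fat cells in the Aqp7 ratios was not tested.

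Aqp4, on chromosome 18, is best known as the water channel of astrocytes and is not a typical hepatocyte gene. Its 3 probes had positive ratios on all 4 arrays. Probe A_51_P419319 gave log2 ratios of 0.707, 0.795, 0.273 and 0.989, a mean of 0.69 ± 0.30 (SD, n = 4) or 1.61-fold. Probe A_52_P625527 gave 0.819, 0.784, 0.206 and 0.653, a mean of 0.62 ± 0.28 or 1.53-fold. As scanned, its median intensity was 335.5, 311, 327 and 311 in the mutant channels and 188, 179, 202 and 145 in wild type. Its mean was 0.50 with normexp background correction and loess, 0.48 without background correction, 0.45 with median centring and 0.54 with Agilent's processed signals. Probe A_52_P25710 gave 0.285, 0.260, 0.047 and 0.180, a mean of 0.19 ± 0.11 or 1.14-fold. On each of them the ratio was lowest on array 3.

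A_51_P419319 had levels of 8.93, 9.27, 9.32 and 8.85 in the mutants, against 8.31, 8.55, 9.07 and 7.99 in wild type. On that probe the wild-type animal of array 3 was the highest of its group and lay above the mutants of arrays 1 and 4, so the groups overlapped. A_52_P625527 had 8.48, 8.08, 8.0 and 7.80 in the mutants, against 7.81, 7.45, 7.82 and 7.29 in wild type, and the lowest mutant lay just below the highest wild-type animal. Without the scaling between arrays, no mutant level of that probe lay below a wild-type level. A_52_P25710 ran from 9.74 to 10.26 in the mutants and from 9.47 to 10.02 in wild type. The Aqp4 probe means spanned 0.50 log2 units, wider than in 95% of the 8612 genes with several tested probes, whose median span was 0.17. Those genes were not matched to Aqp4 by number of probes, and a span tends to widen with more probes. The Aqp9 means spanned 0.22 and the Aqp7 means 0.14. The mean of the 3 Aqp4 probes was 0.50 ± 0.22.

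Aqp5, a water channel of salivary, lacrimal and airway glands, had log2 ratios of 0.033, 0.233, 0.726 and -0.031, a mean of 0.24 ± 0.34 (SD, n = 4). The levels spread more among the mutants, at 7.49, 7.49, 7.96 and 7.27, against 7.47, 7.31, 7.39 and 7.28 in wild type. The mutant of array 3 was the highest of the 8 animals, and the groups overlapped.

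**Figure D2:**
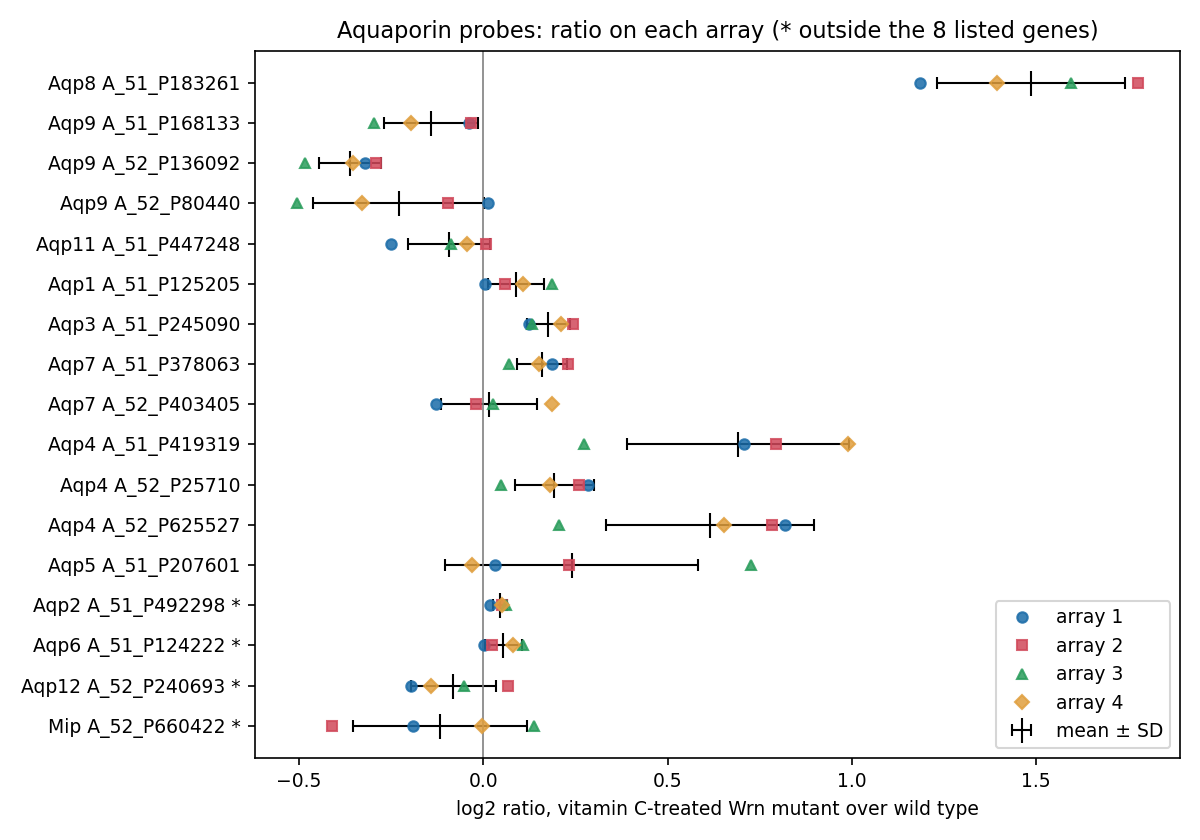
Log2 ratio of vitamin C-treated Wrn mutant over wild type (x axis) for the 13 aquaporin probes and 4 probes of other family members (asterisks), with a symbol per array and the mean ± SD over 4 arrays. Aqp8 lies between 1.185 and 1.776, the Aqp4 probes lie right of 0, the Aqp9 probes lie mostly left of 0, and Aqp5 reaches 0.726 and Mip -0.41 on single arrays.

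The table also held 1 probe each for Aqp2, Aqp6, Aqp12 and Mip, the remaining family members measured, which are known from the kidney collecting duct, kidney intercalated cells, pancreatic acinar cells and the lens. All were well above background in 8 of 8 channels, and the means were 0.05 ± 0.02 for Aqp2, 0.05 ± 0.05 for Aqp6, -0.08 ± 0.12 for Aqp12 and -0.12 ± 0.24 for Mip (SD, n = 4). Aqp5 lies directly beside Aqp2 and Aqp6 on chromosome 15. Brightness on a liver sample does not show that these transcripts, or those of Aqp4 and Aqp5, are present, since probes can bind related sequences.

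Set beside all probes, the 13 aquaporin probes divided as follows. In limma's fit of the mean ratio against 0 over 39080 probes, 3 aquaporin probes were higher in the mutant at an adjusted p under 0.05 and 1 was lower, with 9 not passing. The higher ones were the Aqp8 probe and the Aqp4 probes A_51_P419319 and A_52_P625527, and the lower one was the Aqp9 probe A_52_P136092. Of all tested probes 5.97% were higher and 6.27% were lower. The median log2 ratio was 0.16 over the aquaporin probes and 0.00 over all probes. The ratio was positive on all 4 arrays for 7 of the 13 and negative on all 4 for 2, and of all probes 21.6% and 18.8% were so. All mutant levels lay above all wild-type levels on 1 aquaporin probe, against 2.89% of all probes, and below them on 1, against 4.26%. These shares describe the family and are not evidence about it.

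Since these ratios chose the members, the same values with an array left out are a description and no test. Leaving out any 1 array gave Aqp8 means of 1.39 to 1.59. It gave 0.59 to 0.83 for the Aqp4 probe A_51_P419319 and 0.55 to 0.75 for A_52_P625527, both highest without array 3. The adjusted p of both Aqp4 probes was above 0.05 without array 1, 2 or 4, although their means stayed at 0.55 or more. The Aqp9 probe A_52_P136092 had means of -0.39 to -0.32 and was no longer called without array 2 or 4. It was also not called with median centring (-0.21), with Agilent's processed signals (-0.28), or with the channels as 8 unpaired samples (-0.36), nor was the mean of the 3 Aqp9 probes (-0.24). With unpaired channels no aquaporin probe was called, Aqp8 included (1.49), and limma's unadjusted p was under 0.05 for 4 of them.

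**Figure D3:**
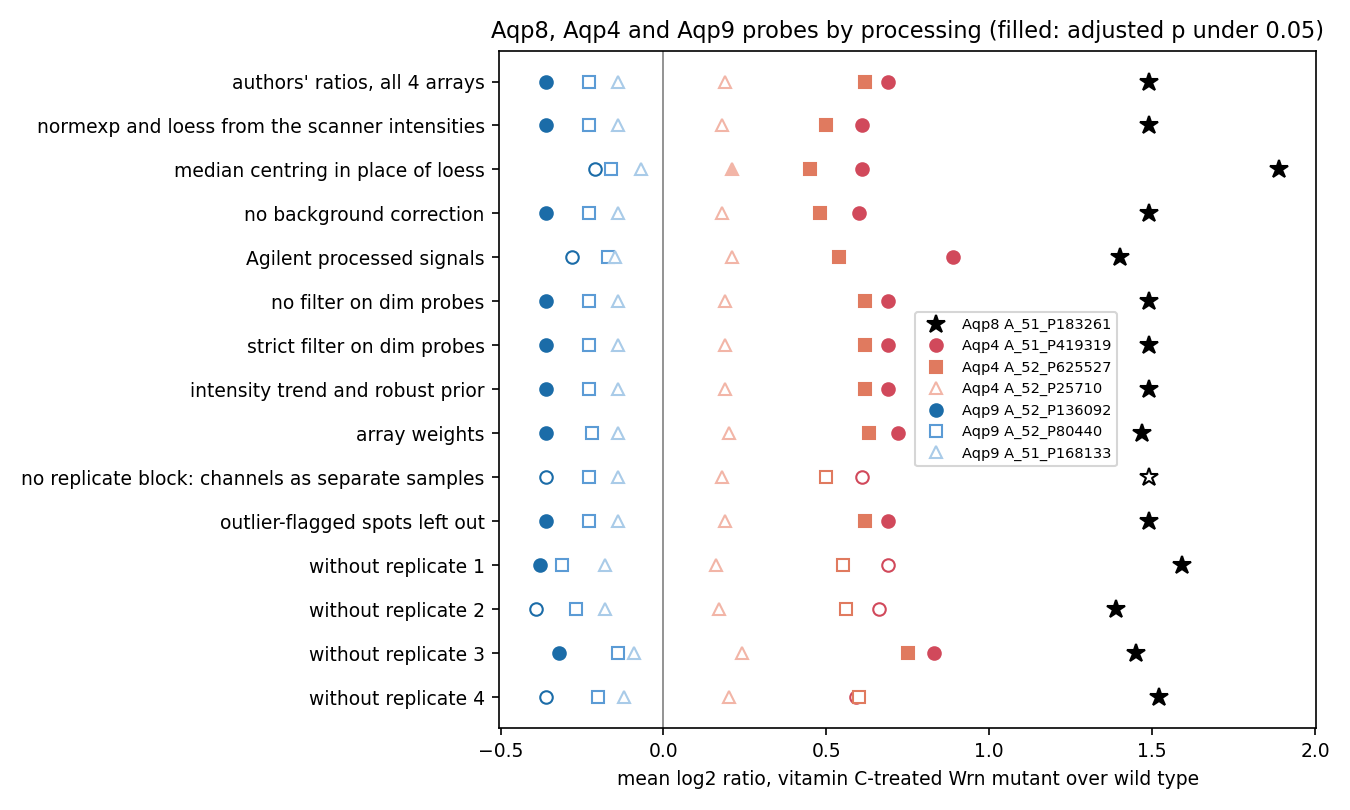
Mean log2 ratio (x axis) of the Aqp8, Aqp4 and Aqp9 probes under each processing setting (rows), with filled symbols where the adjusted p was under 0.05. Aqp8 stays between 1.39 and 1.89 and the Aqp9 probes between -0.39 and -0.07, and in the rows that leave out array 2 or 4 no Aqp4 or Aqp9 symbol is filled.

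The genes with the 4 ratios most like those of Aqp8 were found by the root mean square difference over the 4 arrays, among tested probes with a symbol. The nearest was Mtmr7, a myotubularin-related phosphatase gene, with ratios of 1.13, 1.43, 1.57 and 1.34 and a difference of 0.18. It was followed by Cnot7 (0.27), a deadenylase subunit gene, Hamp2 (0.37), Scd1 (0.38), the gene of a fatty acid desaturase, and Lrtm1 (0.41). A second probe gave 0.79 for Mtmr7 and 0.12 for Cnot7. Mtmr7 and Cnot7 have 1 protein-coding gene between them on chromosome 8, the chromosome of Wrn. Between Mtmr7 and Wrn there are 32 protein-coding genes. Likeness over 4 arrays says nothing of shared control.

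Genes that act with liver aquaporins were described from lists chosen with earlier results of these data known. As for the fat cell markers, a gene was represented by its brightest tested probe. In glycerol uptake and use 2 of 17 measured genes were higher, 1 was lower and 14 missed the threshold. Among the higher ones was Fbp1, a gluconeogenic phosphatase gene, at 0.66 ± 0.10 (limma adjusted p = 0.00834). The lower one was Pnpla2, the gene of adipose triglyceride lipase, at -0.34 ± 0.03 (limma adjusted p = 0.0165). Gyk, the glycerol kinase gene that acts on glycerol brought in by Aqp9, had ratios of mean -0.35 ± 0.30 and did not pass (limma adjusted p = 0.0797). The list's median was 0.02, against 0.01 over all genes.

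In bile formation and ion transport 2 of 22 genes were lower, 0 were higher and 20 did not pass. The list's median was -0.04. The lower ones were Abcc2, a canalicular exporter of organic anions, at -0.35 ± 0.10 (limma adjusted p = 0.0203), and the chloride channel gene Cftr at -0.21 ± 0.05 (limma adjusted p = 0.0424). Cftr was well above background in 6 of 8 channels. At an unadjusted p under 0.05, limma had 3 of the 22 genes higher and 5 lower, and 54 of the 153 genes of all lists in either direction. The share of all genes at that threshold was not counted, so nothing is read from any unadjusted count given here. Abcb11, the bile salt export pump gene, was at 0.30 ± 0.25 and did not pass (limma adjusted p = 0.0807). It had the highest mean of the list.

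In ammonia and urea handling, solutes that Aqp8 and Aqp9 can also conduct, of 14 genes 2 passed as higher, 0 as lower and 12 not at all. The list's median was 0.14. At an unadjusted p under 0.05, limma had 4 higher and 2 lower. The higher ones after adjustment were the glutaminase gene Gls2 at 0.32 ± 0.20 (limma adjusted p = 0.0488) and the ammonium channel gene Rhcg at 0.23 ± 0.07 (limma adjusted p = 0.0378). Among regulators reported for liver aquaporins of 17 genes 2 passed as higher, 3 as lower and 12 not at all. The list's median was -0.01. Foxo1, a transcription factor that insulin restrains, was lower at -0.60 ± 0.05 (limma adjusted p = 0.00801), as were the insulin receptor gene Insr at -0.47 ± 0.09 (limma adjusted p = 0.0132) and the hepatocyte transcription factor gene Hnf4a at -0.25 ± 0.10 (limma adjusted p = 0.0370). Irs1 was higher at 0.28 ± 0.12 (limma adjusted p = 0.0340) and Foxo3 at 0.27 ± 0.04 (limma adjusted p = 0.0245), but their other probes had means of -0.16 and -0.19. The other probes of Foxo1 and Insr had means of -0.21 and 0.01. When all probes of a gene were averaged, Foxo1 was at -0.41 and Insr at -0.23, and both still passed. In the same averages Irs1 was at 0.06, Foxo3 at 0.04 and Hnf4a at -0.14, and these 3 did not pass. Among osmotic response genes 1 of 16 was higher, 3 were lower and 12 did not pass. The list's median was -0.07. Slc38a2, an amino acid transporter induced by hypertonicity, was lower at -0.52 ± 0.23 (limma adjusted p = 0.0225) and Lrrc8a, a subunit of the volume-regulated anion channel, at -0.33 ± 0.13 (limma adjusted p = 0.0294). The third was Slc6a12, the betaine transporter gene, at -0.27 ± 0.11 (limma adjusted p = 0.0378). Hspa4l, a heat shock protein gene, was higher at 0.25 ± 0.13 (limma adjusted p = 0.0496). Without array 2, none of the 27 pathway and marker genes passed in limma, and only 12 of all 39080 probes did. In that fit 46 of 153 list genes had an unadjusted p under 0.05, against 54 with all arrays.

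**Figure D4:**
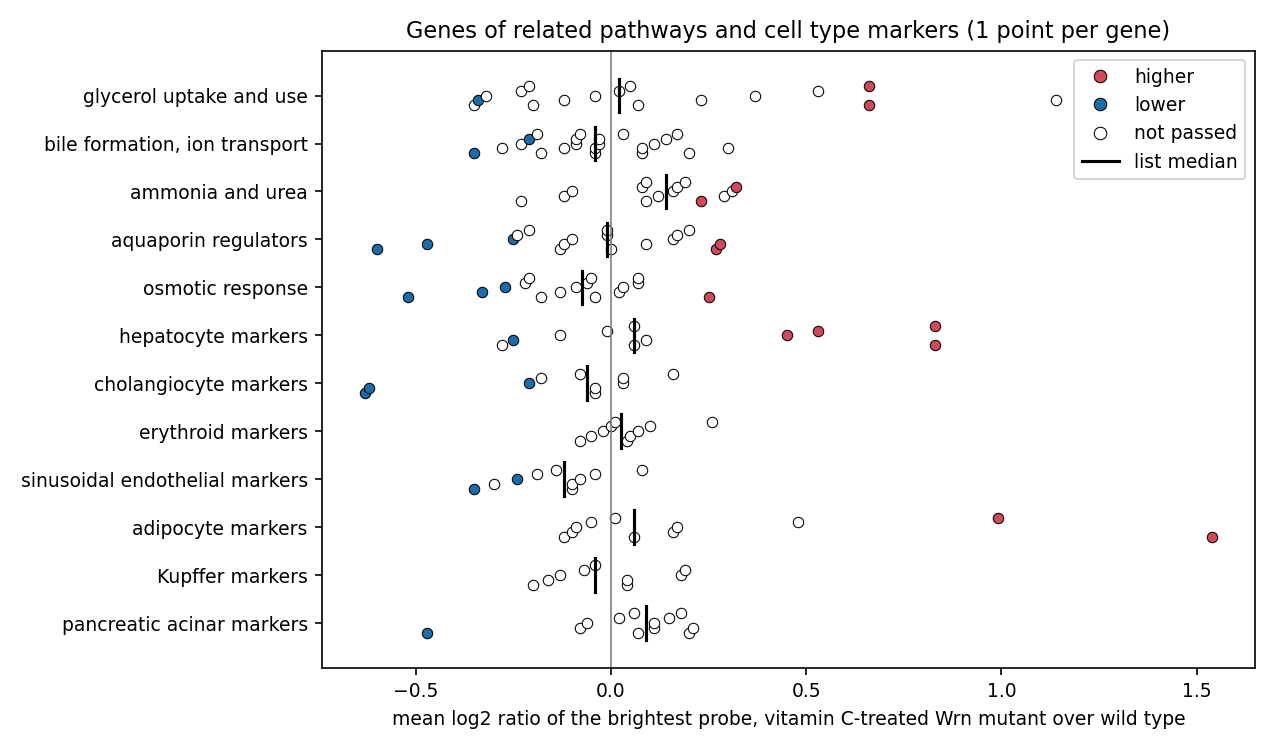
Mean log2 ratio of vitamin C-treated Wrn mutant over wild type (x axis) for each gene of 5 pathway lists and 7 cell type marker lists (rows), with 1 point per gene, colour for genes past an adjusted p of 0.05, and a bar at the list median. Most genes did not pass, and list medians lie between -0.12 and 0.14.

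Cell type markers that could bear on aquaporin levels were counted in the same way. Over all 20687 genes 6.45% were higher and 5.85% were lower. Of 11 hepatocyte markers 4 were higher, 1 was lower and 6 did not pass, with Alb at 0.83 ± 0.21 (limma adjusted p = 0.0106) and Apoa2 at 0.83 ± 0.18 (limma adjusted p = 0.00884) beside Tat and Ttr. The lower one was Hnf4a. The summed hepatocyte level was 20.51 to 20.60 in the mutants and 20.13 to 20.37 in wild type, led by Alb. Without Alb it was 20.15 to 20.24 in the mutants and 19.89 to 20.13 in wild type. Of 10 cholangiocyte markers 3 were lower, 0 were higher and 7 did not pass, with Spp1 at -0.63 ± 0.32 (limma adjusted p = 0.0251) and Sox9 at -0.62 ± 0.39 (limma adjusted p = 0.0371), beside Cftr. Krt19, a defining keratin gene of these cells, was at 0.03 ± 1.00. With the mean of its probes Sox9 was at -0.28 and did not pass. Of 10 sinusoidal endothelial markers 2 were lower, Clec4g at -0.35 ± 0.20 (limma adjusted p = 0.0394) and Kdr at -0.24 ± 0.08 (limma adjusted p = 0.0364), 0 were higher and 8 did not pass. With the mean of its probes Clec4g was at -0.05 and did not pass. Of 12 pancreatic acinar markers, a cell type that also expresses Aqp8, 1 was lower, Cela2a at -0.47 ± 0.32 (limma adjusted p = 0.0448), and 0 were higher (4 at an unadjusted p under 0.05). The summed pancreatic level was 14.51 to 14.57 in the mutants and 14.41 to 14.54 in wild type. Of 10 erythroid and 9 Kupffer cell markers 0 passed in limma, and 0 had an unadjusted p under 0.05, with summed Kupffer levels of 15.69 to 16.13 in the mutants and 15.85 to 16.53 in wild type. The hepatocyte marker means ran from -0.28 to 0.83. The counts of passing markers depended on the processing. With median centring 8 hepatocyte markers were higher, 4 cholangiocyte markers were lower and 0 endothelial markers were lower. With Agilent's processed signals these counts were 2, 1 and 0. The part of cell content in the aquaporin ratios was not tested.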

How the data were processed

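Spot values come from Agilent's Feature Extraction software, version 10.5.1.1, and probes are placed on mm9, per the file headers. The scanner files hold median foreground and background intensity per channel, processed signals, their log10 ratio, and 0 or 1 flags, which the deposited files give per spot. The authors' deposited table gives a log2 ratio per array, its mean, p-value and adjusted p-value, and scores for 43379 spots; limma is named, without version, in the submitters' processing notes. Set against the scanner values, these ratios matched background subtraction with loess (r at least 0.9999 across spots, slope 1.00). The authors' p-values and scores are not used here.

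The authors' log2 ratios (Cy5 mutant over Cy3 wild type) were averaged over the spots of a probe. Probes well above background on at least 3 arrays in either channel were fitted with lmFit and eBayes (limma 3.58.1, R 4.3.3), mean against 0, with Benjamini-Hochberg adjustment over 39080 probes; the fit was checked on simulated data. Levels came from normexp (offset 50), loess and Aquantile on median intensities, so dye bias can remain in them. The 4 arrays shared 1 slide and 1 scan time, which left no batch to block. The members, lists and tests were chosen with earlier results of these data known. Named genes are all aquaporin probes, per list up to 2 passing members in each direction or the 2 of smallest p, the 5 genes most like Aqp8, and Wrn; Gyk, Abcb11, Adipoq, Lep, Plin1, Krt19, Slc6a12, Tat, Ttr and the globins, and Hnf4a and Cftr as further list members, were added after their values were seen. RefSeq symbols and chromosomes (GRCm38.p6) matched 8 of 8 genes, and 12 of 13 probe accessions. Probe sequences are those of the deposited table. Marker sums without a list's brightest member were added after seeing the data. The value of 1 passing list gene is not reported here.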

Additional observations from a re-analysis of the deposited data

Results flagged for a closer look

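Of 51 sets of 4 values checked over the aquaporin probes (ratios, mutant levels and wild-type levels), 3 held an animal far from the other 3 of its group, measured as the gap to its nearest neighbour over the group's whole range; chance alone flags about 1 in 20. In the wild-type channel of array 1 the Aqp3 level was 10.40, against 9.78, 9.80 and 9.82 in the other wild-type animals, a share of 0.938. The mutant of the same array was also the highest of its group, at 10.52. Wild-type Mip stood at 12.17 on array 1, against 11.18, 11.14 and 11.17 (0.954), and wild-type Aqp2 at 12.83, against 12.45, 12.42 and 12.38 (0.841). For both genes the mutant of array 1 was also the highest of its group, at 11.99 for Mip and 12.85 for Aqp2. All 3 flagged levels lay on array 1. That array also had the lowest share of spots well above background, 82.8% in the mutant channel and 84.5% in the wild-type channel. The part of the array in these levels was not tested.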

How the results depend on the processing

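The mutant over wild-type ratio of every aquaporin probe that passed kept its sign in all 14 other fits, and no called value reversed. Of 13 aquaporin probes 4 passed as reported. With median centring in place of loess 7 passed, all 7 higher, and with an adjusted p under 0.01 only 1 did. Leaving out an array gave 1 to 4 aquaporin probes, 12 to 1577 of all probes (4782 as reported) and 0 to 13 of 153 pathway and marker genes (27 as reported). The lowest counts of all probes and of list genes came without array 2. The animals of an array were paired by hybridisation. With no replicate block, taking the channels as unpaired samples, 0 aquaporin probes passed in limma (4 at an unadjusted p under 0.05), with 26 probes in all and 3 list genes. Median centring gave 7289 probes, 58.8% of them higher against 48.8% as reported, and 43 list genes. Of these list genes 34 were higher and 9 lower, against 13 and 14 as reported. Among the ammonia and urea genes 9 were higher with median centring and 0 with Agilent's processed signals, against 2 as reported. Agilent's processed signals gave 1194 probes (40.8% higher) and 9 list genes. Over all probes 66 passed at 0.01 and 319 with a 1.5-fold change as well. The cause of these shifts was not tested. The fits that leave out an array also had fewer animals, and the part of that was not tested either. The median ratio of all probes was 0.00 to 0.01 throughout. The number of arrays, 4, limits the precision, and the Aqp7 probe A_52_P403405 was not well above background in 1 of 8 channels.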
